A study of Mus musculus with 22 samples.

Results

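Messenger RNA of 36 genes of the DNA replication machinery was followed in 22 lymphoma libraries from 15 mice, in which 3' end sequencing counted 52636 genes. The genes were a list given by symbol and not chosen by their values here, though earlier results of these data were known. All 36 were found in the count table, and all 36 passed the low-count filter of every comparison. They comprise 10 origin licensing genes, 6 genes of the replicative helicase and its firing, 6 of the sliding clamp and its loader, 6 polymerase and primase genes, 4 of single-strand binding and Okazaki fragment processing, and 4 of nucleotide supply. All mice were of a mixed 129/C57Bl6 background and carried floxed p53 alleles (p53fl/fl) with a Cre transgene under Mb1 (Mb1Cretg/+), a promoter of the B lineage, so the controls lacked p53 in B cells as well. The MCL-like primaries (4 mice) and the Ccnd2 non-MCL primaries (3 mice) also carried the cyclin D2 transgene (R26-Ccnd2tg/tg), while the p53-only non-MCL primaries (6 mice, 7 libraries) did not. MCL-like is the submitters' immunophenotype label for tumours resembling mantle cell lymphoma. The MCL-like transplants (6 libraries from 4 primary mice) and the Ccnd2 non-MCL transplants (2 libraries from 1 primary mouse) were grown in NSG mice, a strain without T, B and NK cells. Ages are not in the labels. The titles of the 6 MCL-like transplants read non-MCL, against their immunophenotype field, which decided the group here.

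Before a cell copies its DNA, the origin recognition complex, Cdc6 and Cdt1 load the Mcm2 to Mcm7 ring onto origins, a step called licensing. At the start of S phase, Cdc45 and the GINS complex join the ring to form the active helicase, Rpa coats the unwound strand, primase and polymerase alpha start each strand, and polymerases delta and epsilon extend them on the Pcna clamp, which the Rfc complex loads. Many of these genes are known targets of the E2F factors that the retinoblastoma protein restrains, and D-type cyclins with their kinases relieve that restraint.

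Motifs of the E2F type were therefore looked up in the RefSeq promoters (build GRCm38.p6, 250 bases before to 50 after the start), which were listed for 29 of the 36 genes. The searched letters were TTTCGCGC, TTTGGCGC, TTTCCCGC and TTTGCCGC on both strands, and matches may overlap each other. At least 1 of them was found in 12 of the 29 genes (41.4%), against 704 of 27025 genes with a promoter (2.6%). By role, 7 of 9 licensing genes held one, 2 of 4 polymerase and primase genes and 0 of 4 nucleotide supply genes (Rrm1, Rrm2, Tyms and Tk1). In further lists the share was 33.3% of G1/S regulators, 28.2% of other replication genes, 23.1% of repair genes and 5.56% of mitosis genes. CCAAT, on either strand, was found in 65.5% of the 29 and 41.1% of all. Such a match is a description of the letters and not a site.

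The 250 bases upstream of the start are shown for 5 of the genes named below. Each is read 5′ to 3′ on the gene's strand, with the matches in capitals. Mcm5 and Mcm6 hold overlapping upstream matches, while the licensing genes Mcm2, Mcm3, Cdt1 and Orc6 hold none in these bases. Rfc3 and Pola1 have a single upstream match each, and Tyms has none in these letters.
Mcm5, chr8:75109259-75109508, plus strand: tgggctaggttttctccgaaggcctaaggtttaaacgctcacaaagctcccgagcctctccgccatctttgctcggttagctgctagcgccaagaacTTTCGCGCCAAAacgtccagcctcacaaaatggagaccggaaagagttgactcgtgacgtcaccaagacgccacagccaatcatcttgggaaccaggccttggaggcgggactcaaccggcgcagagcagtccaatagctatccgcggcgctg
Mcm6, chr1:128359706-128359955, minus strand: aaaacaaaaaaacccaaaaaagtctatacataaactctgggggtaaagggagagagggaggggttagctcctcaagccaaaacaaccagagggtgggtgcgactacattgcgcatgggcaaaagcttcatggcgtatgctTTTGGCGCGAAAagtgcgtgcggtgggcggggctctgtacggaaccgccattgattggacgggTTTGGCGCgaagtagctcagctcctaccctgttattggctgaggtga
Rfc3, chr5:151651209-151651458, minus strand: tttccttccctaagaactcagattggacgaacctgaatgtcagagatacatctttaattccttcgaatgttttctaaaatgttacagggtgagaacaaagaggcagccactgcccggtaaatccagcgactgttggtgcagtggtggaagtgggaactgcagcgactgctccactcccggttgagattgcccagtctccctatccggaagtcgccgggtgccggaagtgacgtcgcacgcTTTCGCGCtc
Pola1, chrX:93632156-93632405, minus strand: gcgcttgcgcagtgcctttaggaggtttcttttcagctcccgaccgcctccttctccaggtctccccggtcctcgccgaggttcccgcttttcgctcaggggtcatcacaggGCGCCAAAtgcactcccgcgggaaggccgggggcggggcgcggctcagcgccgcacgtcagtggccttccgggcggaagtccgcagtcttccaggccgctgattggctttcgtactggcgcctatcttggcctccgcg
Tyms, chr5:30073626-30073875, minus strand: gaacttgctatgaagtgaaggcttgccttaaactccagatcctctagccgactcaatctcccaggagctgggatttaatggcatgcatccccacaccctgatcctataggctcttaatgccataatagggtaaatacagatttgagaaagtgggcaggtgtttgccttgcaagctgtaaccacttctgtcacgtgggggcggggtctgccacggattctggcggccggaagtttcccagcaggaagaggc

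Library totals ran from 2693399 to 8146613 counts, and single replication genes had 19 counts (Gins3, p53-only replicate 5) to 6603 counts (Lig1, Ccnd2 non-MCL replicate 3) in a library. Levels are given as CPM, the counts scaled to a common library total, per mouse. The kit reads 3' ends, so levels are not compared between genes. Ccnd2 itself was at 1181.1 to 2127 CPM in MCL-like, 450.6 to 1952.6 CPM in Ccnd2 non-MCL and 5.5 to 893.2 CPM in p53-only primaries, so the last group overlapped the transgenic non-MCL mice. All 10 B lineage markers were detected in each group, with summed levels of 5893 to 9903, 4440 to 6761 and 2169 to 6155 CPM in the same order. The libraries differ in other cells: 12 erythroid markers summed to 23960 to 111900 CPM in MCL-like, 4456 to 32720 CPM in Ccnd2 non-MCL and 982.7 to 39720 CPM in p53-only primaries. In the same order, 10 T cell markers summed to 477.5 to 640 CPM, 70.91 to 210.9 CPM and 15.93 to 643.5 CPM, and 10 pro-B and pre-B markers to 61.82 to 390.6 CPM, 4545 to 9799 CPM and 139.8 to 9407 CPM, with none of these markers at 0 in a whole group. The part of T cell and pre-B RNA in the results below was not tested. In bulk tumour RNA, fewer dividing cells and less RNA per dividing cell cannot be told apart.

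The MCL-like primaries gave the smallest share of their counts to the 36 genes. The share was 0.338% ± 0.0784 (SD, n = 4) in MCL-like, 0.553% ± 0.129 (n = 3) in Ccnd2 non-MCL and 0.546% ± 0.0670 (n = 6) in p53-only primaries. By mouse, the MCL-like shares were 0.244%, 0.433%, 0.354% and 0.321% for replicates 1 to 4. The Ccnd2 non-MCL shares were 0.412%, 0.666% and 0.582%, so the lowest of them fell within the MCL-like range, while all 6 p53-only mice, at 0.471% to 0.657%, were above it. One of those mice gave 2 libraries, and its replicate 5 library alone, at 0.385%, was inside the MCL-like range, with replicate 2 at 0.547%. The erythroid marker sums of MCL-like replicates 1 to 4 were 50437.7, 111855, 58645.6 and 23957.7 CPM, and their part in these shares was not tested. The mean level was lowest in the MCL-like group for 31 of the 36 genes, and highest in it for 1. Among the 13 primary mice, the lowest mouse was MCL-like for 26 genes, 19 of them in MCL-like replicate 1 alone, the mesenteric tumour; the highest mouse was never MCL-like, but Ccnd2 non-MCL for 15 genes and p53-only for 21.

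**Figure D1:**
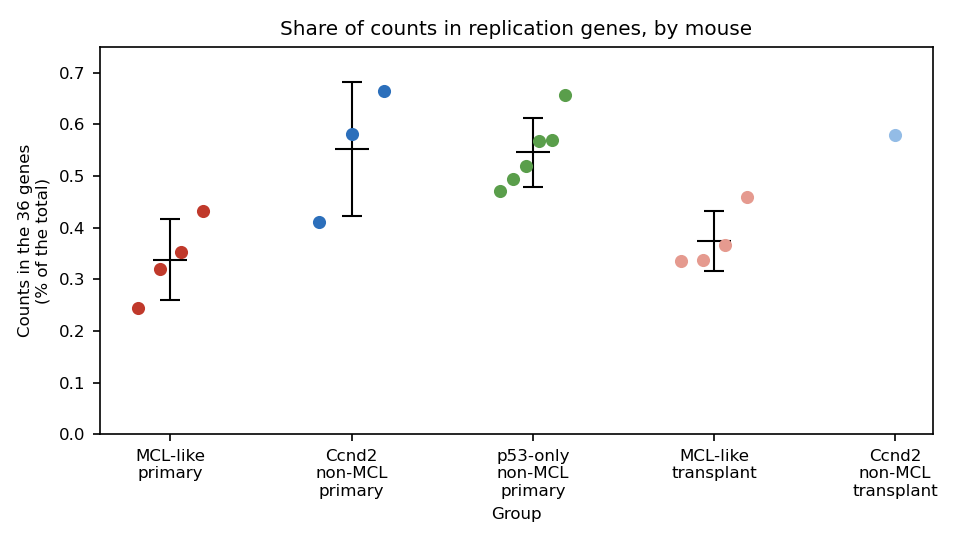
Share of each mouse's counts that fell in the 36 replication genes (y axis, %), by group (x axis); points are mice, horizontal marks and bars are the mean ± SD. The 4 MCL-like primaries lie between 0.244% and 0.433%, the 6 p53-only primaries between 0.471% and 0.657%, and the single Ccnd2 non-MCL transplant mouse at 0.580%.

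**Figure D2:**
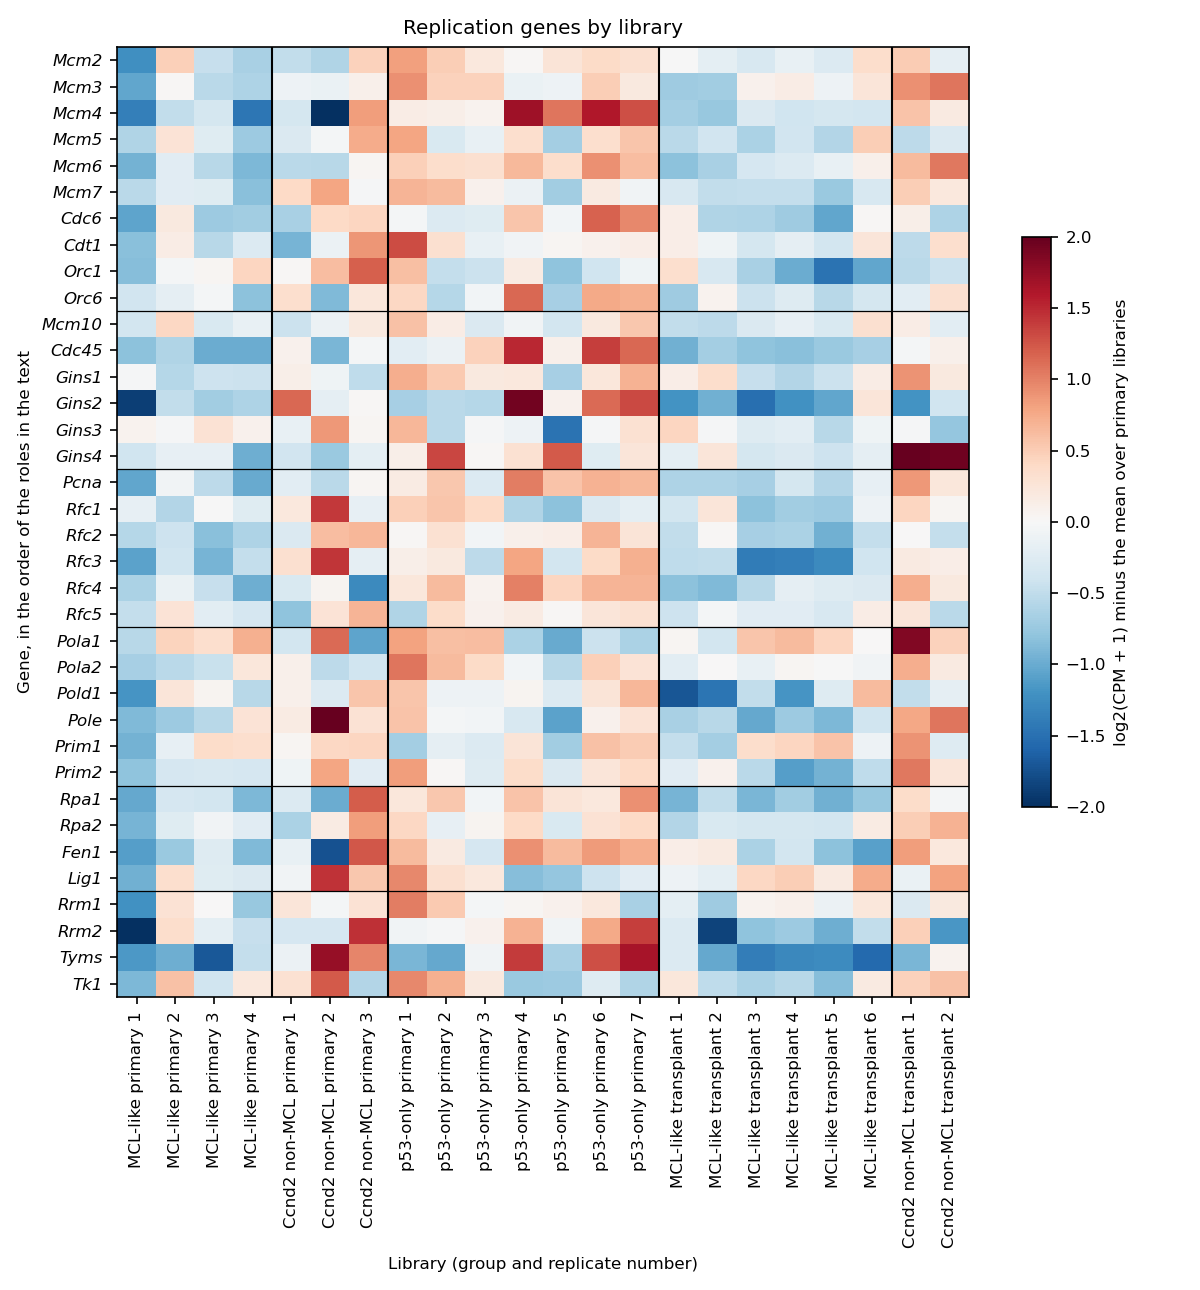
Level of each replication gene (rows, ordered by role, with lines between roles) in each of the 22 libraries (columns), as log2(CPM + 1) minus the gene's mean over the 14 primary libraries; colours stop at 2 in either direction. MCL-like columns are mostly blue, MCL-like replicate 1 most of all, and in Ccnd2 non-MCL replicate 2 Pole, Tyms, Lig1 and Rfc3 are dark red where Mcm4 and Fen1 are dark blue.

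MCL-like primaries were first compared with Ccnd2 non-MCL primaries, which have the same genotype and differ in immunophenotype. No replication gene passed the edgeR test, in which 40 of 12967 genes did (0.308%). The median log2 fold change of the 36 was -0.39, against -0.05 over all genes tested, and 31 of 36 were negative, against 52.2% of all genes. With unadjusted p under 0.05 there were 5, all lower in MCL-like (Rfc3, Pole, Tyms, Rfc2 and Mcm7), or 13.9% against 10.6% of all genes in that direction. DESeq2 called 3 (Rfc3, Pole and Tyms), where it called 6.44% of all genes. Limma-voom called 0, where it called 0.131% of all genes, with 5 of the 36 at unadjusted p under 0.05. The groups did not overlap for 6 of 36 (Mcm7, Gins2, Rfc2, Rfc3, Prim2 and Tyms), all with MCL-like lower, or 16.7% against 10.5% of all genes, so that share is not far from the background.

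The wider comparison set MCL-like against all 9 non-MCL mice, over both genotypes, and shares its MCL-like mice with the first. Again edgeR called none of the 36, while 685 of 12434 genes were called (5.51%). The median was -0.49 against -0.07 over all genes, and 34 of 36 were negative against 53.4% of all genes. Unadjusted p was under 0.05 for 12 of 36, all lower in MCL-like, or 33.3% against 13.6% of all genes. The lowest adjusted p were 0.0568 for Tyms, 0.0772 for Rfc3, 0.0816 for Rfc2, 0.0837 for Cdc45 and 0.0983 for Gins2. DESeq2 called exactly these 5, or 13.9% against 13.7% of all genes. Limma-voom called 0, where it called 6.68% of all genes, with 11 of the 36 at unadjusted p under 0.05. Mcm7, Rfc2 and Prim2 did not overlap between 4 and 9 mice, with MCL-like lower, or 3 of 36 against 2.88% of all genes. With the erythroid and immunoglobulin genes removed before scaling, the medians were -0.37 and -0.51 in the narrow and the wide comparison, and the counts of negative genes stayed at 31 and 34.

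**Figure D3:**
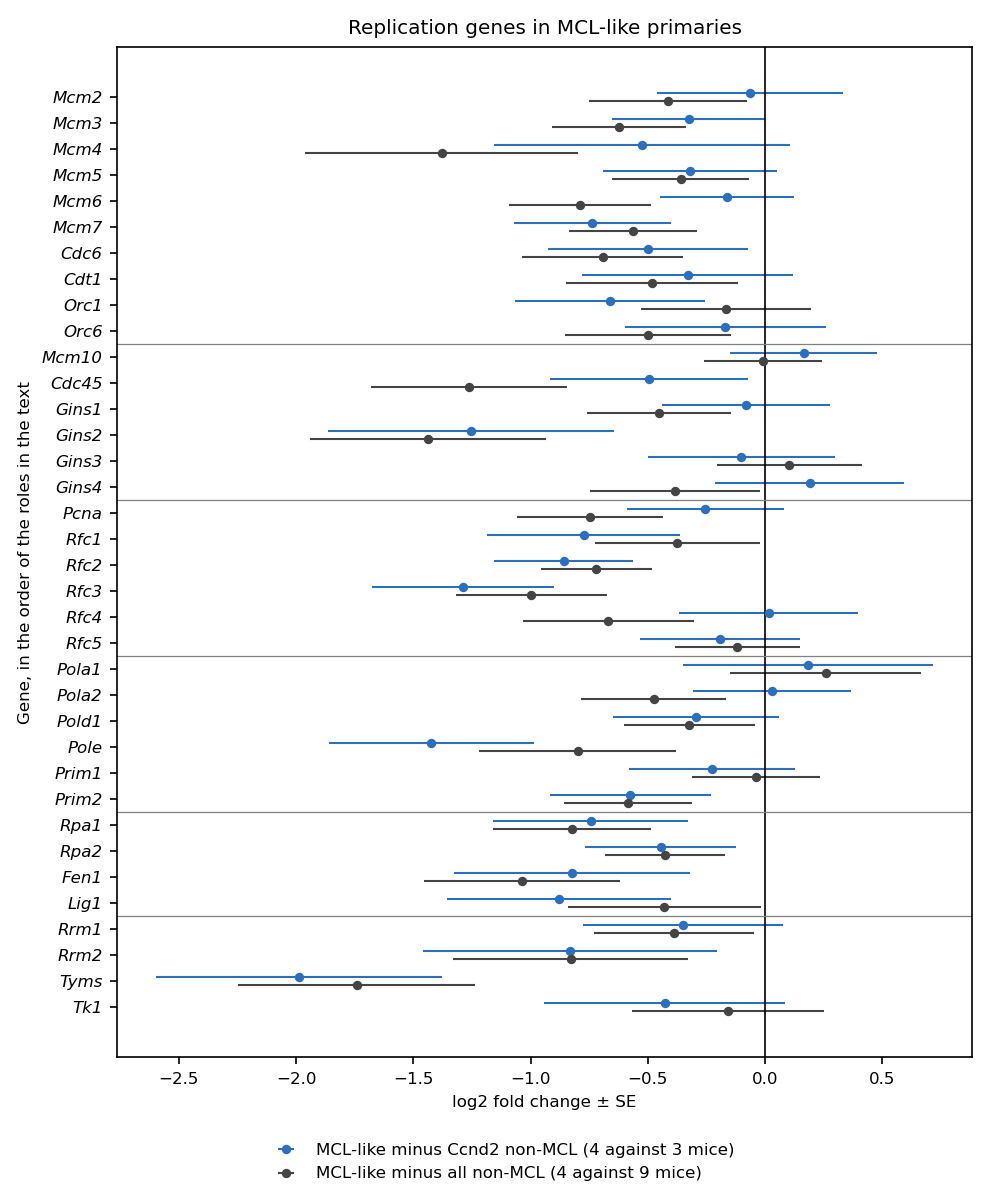
log2 fold change ± SE (x axis) of each replication gene (y axis, ordered by role) for MCL-like minus Ccnd2 non-MCL primaries (blue) and MCL-like minus all non-MCL primaries (grey), which share the 4 MCL-like mice. Most points lie left of 0, with Tyms farthest at -1.99 and -1.74, while Pola1 lies right of 0 in both; without the oTP libraries Pola1 is at -0.19 and -0.30 (not drawn).

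Among the licensing genes, all 10 had negative fold changes in both comparisons, and none was called. Without the libraries whose names begin with oTP, described below, 5 of the 10 were positive in the narrow comparison (Mcm2, Mcm4, Mcm5, Mcm6 and Cdt1), from 0.03 for Mcm5 to 0.42 for Mcm4. Mcm7, a ring subunit (ENSMUSG00000029730, chromosome 5, 138164583 to 138172422, minus strand), was at 284, 354, 349 and 231 CPM in MCL-like replicates 1 to 4 and at 549, 714 and 407 CPM in Ccnd2 non-MCL. The p53-only mice spanned 383 to 664 CPM, with a median of 454 CPM. Every MCL-like mouse was thus below every other primary mouse. By library this did not hold: p53-only replicate 5 was at 254 CPM, within the MCL-like range, and replicate 2 of the same mouse at 646 CPM. The log2 fold changes were -0.74 ± 0.33 (SE; adjusted p = 0.282) against Ccnd2 non-MCL and -0.56 ± 0.27 (adjusted p = 0.212) against all non-MCL, the first being -0.47 without Ccnd2 non-MCL replicate 2. Ap4m1, Cops6 and the Mir106b, Mir93 and Mir25 hairpins overlap Mcm7, so its counts may include theirs.

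Mcm4, another ring subunit, varied widely between tumours. It was at 40.7, 76.0, 83.2 and 38.4 CPM in MCL-like, at 83.2, 14.4 and 191 CPM in Ccnd2 non-MCL, and at 113 to 347 CPM (median 206 CPM) in p53-only mice. The lowest of all 13 mice, Ccnd2 non-MCL replicate 2, was therefore not MCL-like, and the p53-only mice were all above the MCL-like ones. The fold change against all non-MCL was -1.38 ± 0.58 (adjusted p = 0.155). Without that mouse it was -1.53 (adjusted p = 0.0365), in a fit that called 8.69% of all genes. Against Ccnd2 non-MCL it was -0.53 ± 0.63, then -1.01 without the same mouse and, with the reverse sign, 0.42 without the oTP libraries.

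Mcm6, a ring subunit too, was low in both groups of transgenic primaries. It was at 118, 195, 156 and 122 CPM in MCL-like and at 157, 155 and 235 CPM in Ccnd2 non-MCL. The p53-only mice were at 286 to 433 CPM (median 335 CPM), so neither group of transgenic primaries overlapped them. The Ccnd2 non-MCL transplant mouse, transgenic too, was at 415 CPM, within the p53-only range. Among the loaders, Orc1 and Orc6 of the origin complex had log2 fold changes of -0.17 ± 0.36 and -0.50 ± 0.35 against all non-MCL, with Cdc6 at -0.69 ± 0.34 and Cdt1 at -0.48 ± 0.37. Mcm2, Mcm3 and Mcm5 were at -0.41, -0.62 and -0.36.

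Of the 6 helicase and firing genes, Cdc45 and Gins2 had the most negative values in MCL-like, and the other 4 were nearer 0. Cdc45, which joins the ring when an origin fires, was at 23.2, 27.4, 20.6 and 20.7 CPM in MCL-like, at 44.6, 21.9 and 40.6 CPM in Ccnd2 non-MCL, and at 36.02 to 120.6 CPM (median 76.3 CPM) in p53-only mice. The MCL-like mice were alike, and among the other 9 only Ccnd2 non-MCL replicate 2 reached their range. Its log2 fold change against all non-MCL was -1.26 ± 0.42.

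Gins2, a GINS subunit, was at 6.84, 19.4, 16.8 and 17.7 CPM in MCL-like, at 63.1, 24.6 and 28.4 CPM in Ccnd2 non-MCL, and at 17.3 to 109 CPM (median 42.4 CPM) in p53-only mice. MCL-like was below the 3 Ccnd2 non-MCL mice and overlapped the p53-only mice. The fold changes were -1.25 ± 0.61 (adjusted p = 0.317) and -1.44 ± 0.50; with the libraries labelled Spleen only, the second was -0.25. Gins1, Gins3, Gins4 and Mcm10, which helps the helicase start, ranged from -0.45 (Gins1) to 0.10 (Gins3) against all non-MCL. Gins4 stood out elsewhere, at 184 CPM in the Ccnd2 non-MCL transplant mouse against 31.3 to 93.5 CPM in p53-only and 18.5 to 33.3 CPM in MCL-like primaries.

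In the clamp and its loader, Rfc3 and Rfc2 had the most negative values among 6 genes in the narrow comparison, and Rfc3 and Pcna in the wide one. Rfc2, a small subunit of the loader (chromosome 5, 134581366 to 134601805, plus strand), was at 95.5, 107, 79.1 and 91.6 CPM in MCL-like, at 116, 219 and 225 CPM in Ccnd2 non-MCL, and at 136 to 228 CPM (median 160 CPM) in p53-only mice. Every MCL-like mouse was below the other 9, by library too, with fold changes of -0.86 ± 0.30 (adjusted p = 0.161) and -0.72 ± 0.24. Lat2 overlaps Rfc2 on the other strand.

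Rfc3, a second small subunit, was at 41.9, 67.3, 46.2 and 63.7 CPM in MCL-like, at 112, 240 and 78.2 CPM in Ccnd2 non-MCL, and at 61.3 to 154 CPM (median 107 CPM) in p53-only mice. MCL-like lay below all Ccnd2 non-MCL mice and overlapped the lowest p53-only mouse. The fold changes were -1.29 ± 0.39 (adjusted p = 0.124) and -0.997 ± 0.322, and the first was -0.64 without Ccnd2 non-MCL replicate 2. Pcna, the clamp, had a fold change of -0.75 ± 0.31 against all non-MCL, Rfc4 -0.67 ± 0.37, Rfc1, the large subunit, -0.37 ± 0.35 and Rfc5 -0.12 ± 0.27.

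The 6 polymerase and primase genes had values of both signs, and none was called. Pola1, the catalytic subunit of polymerase alpha, had a positive fold change of 0.26 ± 0.41 against all non-MCL, where its primase partners Prim1 and Prim2 were at -0.04 ± 0.27 and -0.58 ± 0.27. The sign of Pola1 turned without the oTP libraries (-0.30 against all non-MCL and -0.19 against Ccnd2 non-MCL), with the oTP name as a covariate (-0.21 and -0.10) and, against all non-MCL, in Spleen libraries alone (-0.11). Pole, the catalytic subunit of polymerase epsilon, was at 41.6, 46.2, 52.2 and 93.5 CPM in MCL-like, at 87.2, 313 and 94.6 CPM in Ccnd2 non-MCL, and at 61.5 to 115 CPM (median 78.3 CPM) in p53-only mice. MCL-like replicate 4 overlapped both other groups and Ccnd2 non-MCL replicate 2 was far above all mice, with fold changes of -1.42 ± 0.44 (adjusted p = 0.126) and -0.80 ± 0.42. Without that mouse they were -0.52 (adjusted p = 0.515) and -0.42.

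Prim2, the large primase subunit, was at 23.2, 32.7, 32.9 and 32.5 CPM in MCL-like, at 39.0, 72.2 and 35.2 CPM in Ccnd2 non-MCL, and at 34.6 to 74.3 CPM (median 51.4 CPM) in p53-only mice. The groups did not overlap, by a margin of 34.6 CPM over 32.9 CPM, or of 33.7 CPM by library (p53-only replicate 5). Pola2 and Pold1, accessory and catalytic subunits of polymerases alpha and delta, had fold changes of -0.47 ± 0.31 and -0.32 ± 0.28 against all non-MCL.

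The 4 genes of single-strand binding and Okazaki processing were negative in both comparisons; without the oTP libraries, Rpa1 and Fen1 were at 0.08 and 0.14 in the narrow one. Against all non-MCL, Rpa1 and Rpa2, which coat single strands, had fold changes of -0.82 ± 0.34 and -0.43 ± 0.26. Fen1, the flap nuclease, was at -1.04 ± 0.42, and Lig1, the ligase that joins the fragments, at -0.43 ± 0.41. Among the alternatives run, Fen1 was called only without Ccnd2 non-MCL replicate 2, where 8.69% of all genes were called. In that mouse it was at 18.0 CPM, against 56.8 and 150.5 CPM in the other Ccnd2 non-MCL mice and 28.8 to 52.5 CPM in MCL-like.

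Tyms, which makes thymidylate (ENSMUSG00000025747, chromosome 5, 30058202 to 30073617, minus strand), had the most negative fold change of the 36 in both comparisons. It was at 42.8, 48.7, 29.1 and 69.0 CPM in MCL-like, at 89.1, 326 and 191 CPM in Ccnd2 non-MCL, and at 50.7 to 306 CPM (median 165 CPM) in p53-only mice. MCL-like lay below all Ccnd2 non-MCL mice, while p53-only replicates 1 and 2, at 50.7 and 51.7 CPM, were within its range. Of the other p53-only mice, replicate 3 was at 91.6 CPM. The oTP replicates 4, 6 and 7, none labelled Spleen, were at 257, 238 and 306 CPM. The fold changes were -1.99 ± 0.61 (adjusted p = 0.126) and -1.74 ± 0.51. Among the other nucleotide genes, Rrm2 and Rrm1, the ribonucleotide reductase subunits, were at -0.83 ± 0.50 and -0.39 ± 0.34 against all non-MCL, and Tk1, thymidine kinase, at -0.16 ± 0.41. Rrm2 was at 9.81 CPM in MCL-like replicate 1 and at 73.6 to 129 CPM in the other 3 MCL-like mice.

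Other cell cycle genes were read from 4 further lists in the same comparison with all non-MCL mice, in which 5.51% of all genes were called and 25% had an unadjusted p under 0.05. Of 48 other replication genes, 6 were called, all lower in MCL-like: Dbf4, the activator of the origin kinase, at -1.13 ± 0.23, Exo1 (a nuclease) at -1.15 ± 0.24, Dnmt1 (maintenance DNA methylation) at -1.59 ± 0.36, Dck (a nucleoside kinase) at -2.28 ± 0.53, Dna2 (a helicase nuclease) at -2.02 ± 0.49 and Chaf1b (histone deposition on new DNA) at -1.22 ± 0.32, with adjusted p of 0.0159 to 0.0416. The list's median was -0.59, with 39 of 48 negative. Without any 1 of the 4 MCL-like mice (replicates 1, 2, 3 and 4) the count was 1 or 2. In those fits 1.37% to 1.95% of all genes were called. Without the oTP libraries the count was 2, where 2.13% of all genes were called. Of 22 mitosis genes 2 were called, both lower (Bub1b at -1.80 ± 0.42 and Birc5 at -1.45 ± 0.35), and the median was -0.52; leaving out any of these 4 mice gave 0. None of 28 G1/S regulators or 17 replication stress and repair genes was called by edgeR, with 10 and 2 at unadjusted p under 0.05. DESeq2 called 4 and 0, where it called 13.7% of all genes, and limma-voom 1 and 0, where it called 6.68%. The summed level of the mitosis genes was 3269.5 to 3975.6 CPM in MCL-like and 4676.7 to 6320.9 CPM in the 9 non-MCL mice, with no overlap, although the p53-only replicate 5 library alone was at 3593.2 CPM. Mki67, a marker of cycling cells, did overlap, at 220 to 668 CPM in MCL-like and 133 to 728 CPM in non-MCL mice, with a fold change of 0.54 ± 0.41. Top2a was at -0.24 ± 0.24, E2f1 at -0.44 ± 0.25 and Ccna2 at -0.71 ± 0.39, while Ccne1, cyclin E1, was at 0.92 ± 0.34 (adjusted p = 0.108).

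The transgene was read within the non-MCL label, in Ccnd2 non-MCL against p53-only primaries. No gene of the 12967 tested was called (0%), and so none of the 36, by edgeR. DESeq2 and limma-voom, which called 0.887% and 0.00771% of all genes, called none of the 36 either. Each had 8 of the 36 at unadjusted p under 0.05. The median of the 36 was -0.14, against -0.04 over all genes. By edgeR 7 had unadjusted p under 0.05, or 19.4% against 10.3% of all genes. Of these, 6 were lower with the transgene (Mcm6, Cdc45, Gins4, Pcna, Rfc4 and Pola2) and Pole was higher, at 0.98 ± 0.39 (adjusted p = 0.427). Mcm6 had -0.94 ± 0.28 (adjusted p = 0.332). Mcm6, Gins1 and Rfc4 did not overlap, with the transgenic mice lower, or 3 of 36 against 1.58% of all genes. Rfc4, a loader subunit, was at 25.99, 33.6 and 12.8 CPM in Ccnd2 non-MCL and 34.0 to 65.6 CPM in p53-only mice, a margin of under 1 CPM. The Ccnd2 non-MCL transplant mouse, also transgenic, was not below the p53-only range for Mcm6, Cdc45, Gins4, Pcna, Rfc4, Pola2 or Gins1. Mcm6 was at 415 CPM there, Rfc4 at 45.5 CPM and Gins1 at 25.5 CPM. Pole, at 149 CPM, and Gins4, at 184 CPM, were above that range. The primary comparison moved with the libraries used. In Spleen libraries alone, 2 of the 36 had unadjusted p under 0.05 by edgeR, and the median was -0.05. Without the oTP libraries, described next, 10 did, and the median was -0.33. None of the 36 was called in either setting, where 0.316% and 0.891% of all genes were called.

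The libraries whose names begin with oTP formed a second axis across the primaries: p53-only replicates 4 to 7 and Ccnd2 non-MCL replicate 3, and no MCL-like library. The labels do not say what the prefix means. With the group in the model, and without the mouse that gave libraries of both names, 12 mice were compared, 4 of them oTP; 716 of 12859 genes were called (5.57%), and 2 of the 36, both lower in oTP libraries. For Pola1 the difference on the log2 scale was -1.57 ± 0.34 (adjusted p = 0.0252), and for Tk1 it was -1.40 ± 0.36 (adjusted p = 0.0418). Rfc1 at -1.06 ± 0.30 and Mcm4 at 1.47 ± 0.47 missed the threshold, with adjusted p of 0.0583 and 0.092. This comparison was chosen after the data were seen, and it was run in 2 versions: the first, with the shared mouse kept as its replicate 2 library (13 mice), called 1091 of 12976 genes (8.41%) and 4 of the 36, adding Rfc1 (adjusted p = 0.0272) and Mcm4 (adjusted p = 0.0491) to Pola1 and Tk1. The second is given first because it keeps both libraries of the shared mouse outside the fit.

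That mouse, p53-only replicates 2 and 5, gave the same direction for the genes at both ends. Pola1 was at 196 CPM in replicate 2 and 63.7 CPM in the oTP replicate 5, a log2 ratio of -1.62. Tk1 was at 165 and 60.3 CPM (-1.45), Rfc1 at 397 and 153 CPM (-1.38), and Mcm4 at 116 and 225 CPM (0.96). Rrm2 and Rpa1, at 1.12 and 0.82 in the fit, were at -0.03 and -0.30 in this mouse. Of the 36 genes, 24 had the sign of the fit, a match near the 68.9% of all genes, and 8 of 36 were higher in replicate 5. This is 1 pair of libraries with no replicate, and it differs in the tumour site label too (Spleen and lymphoma). Among the p53-only mice, oTP replicates 4, 6 and 7 are also those with high Vpreb1, a surrogate light chain gene of pre-B cells. They were at 458 to 5132 CPM, against 2.02 to 4.82 CPM in the mice of replicates 1 to 3. The name, the site and the Vpreb1 level cannot be told apart between these sets of mice. The oTP replicate 5 library came from a mouse with Vpreb1 at 4.11 CPM, its libraries summed.

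**Figure D4:**
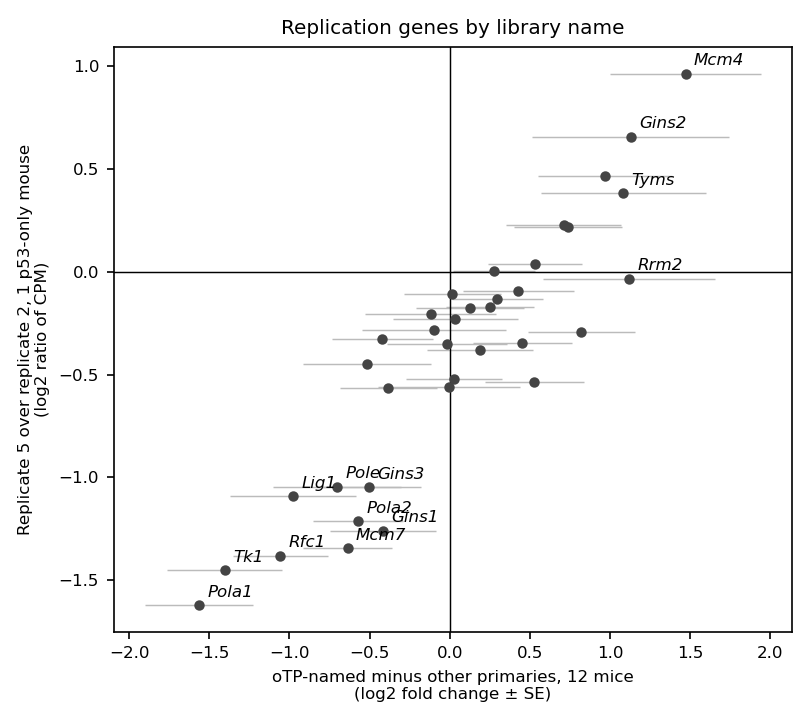
Replication genes by library name: log2 fold change ± SE of oTP-named minus other primaries over 12 mice with group in the model (x axis), against the log2 ratio of replicate 5 (oTP) to replicate 2 in the p53-only mouse that the fit left out (y axis). Pola1 and Tk1 lie at the lower left, at -1.62 and -1.45 on the y axis, and Mcm4 at the upper right.

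The difference between MCL-like and the other primaries kept its direction without the oTP libraries. The median of the 36 was then -0.22 against Ccnd2 non-MCL, with 25 negative, and -0.57 against all non-MCL, with 35 negative. Single genes moved more: Mcm4 went from -1.38 to -0.50, Cdc45 from -1.26 to -0.72 and Gins2 from -1.44 to -0.85 in the wide comparison, while Mcm7 was at -0.90, Rfc2 at -0.69 and Rfc3 at -1.10. In the narrow one, Rfc3 at -1.59 (adjusted p = 0.0398) and Tyms at -2.04 (adjusted p = 0.045) then passed the threshold, 2 of 36 where 4.24% of all genes were called. That setting kept only Ccnd2 non-MCL replicates 1 and 2, with Rfc3 at 112 and 240 CPM and Tyms at 89.1 and 326 CPM.

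Transplanted MCL-like tumours were compared with the primaries of the same 3 mice, to read the genes after growth in a new host. By edgeR no gene of 12020 was called (0%), and none of the 36 had an unadjusted p under 0.05, against 5.46% of all genes. DESeq2 and limma-voom, which called 0.266% and 0% of all genes, also called none of the 36. Each had 1 of the 36 at unadjusted p under 0.05. The median fold change of the 36 was 0.26 against 0.01 over all genes, and 30 of 36 were positive against 50.4% of all genes. The share of counts in the 36 genes went from 0.244% to 0.337% in the mouse of MCL-like replicate 1, from 0.433% to 0.460% in that of replicate 2 and from 0.321% to 0.366% in that of replicate 4. These shares were higher in all 3 transplants, but 32, 15 and 19 of the 36 genes had higher CPM. Without the mouse of replicate 1, the primary with the lowest levels, the median was 0.22 with 9 of 36 negative. In CPM, 7 genes were higher in all 3 mice (Mcm3, Mcm4, Mcm5, Mcm6, Cdt1, Prim1 and Lig1), or 19.4% against 12.4% of all genes, and Mcm10 was lower in all 3.

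Lig1 had the largest fold change, 0.76 ± 0.34 (adjusted p = 0.82), from 285, 704 and 456 CPM to 505, 928 and 761 CPM. Mcm4 followed at 0.74 ± 0.33 (adjusted p = 0.82), from 40.7, 76.0 and 38.4 CPM to 64.9, 82.3 and 83.9 CPM. Both were higher in 3 of 3 mice, and their ranges before and after still overlapped. The erythroid marker sum went as low as 330.7 CPM and as high as 120400 CPM in the transplants, and the median of the 36 was 0.24 with erythroid and immunoglobulin genes removed. In the same pairs, all 12 erythroid (median -3.30), 9 of 10 T cell (median -2.10, 6 with unadjusted p under 0.05), all 9 macrophage, all 8 neutrophil and all 7 stromal and endothelial genes had negative fold changes, none called. Of the 22 mitosis genes 18 were positive (median 0.31). The part of these other cells in the transplant values was not tested beyond the erythroid and immunoglobulin removal. Over all 4 mice, the mean share of the transplants, 0.375% ± 0.0583 (SD, n = 4), lay in the range of the MCL-like primaries. Single transplant mice were at 0.336% to 0.460%, against 0.244% to 0.433% in those primaries. The Ccnd2 non-MCL transplants, 2 libraries of 1 primary mouse that has no primary library here, had a share of 0.580% and allow no test.

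**Figure D5:**
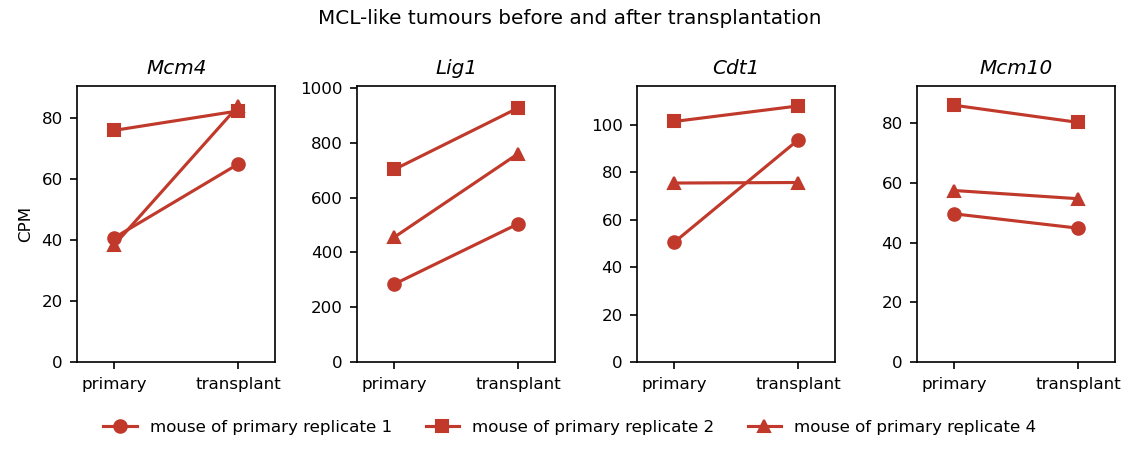
CPM (y axis, from 0) of 4 replication genes in the MCL-like primary and the summed transplants of the same mouse (x axis), 1 line per mouse. Mcm4, Lig1 and Cdt1 are higher in all 3 transplants, Cdt1 by little in the mouse of replicate 4, and Mcm10 is lower in all 3.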

How the data were processed

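The authors' deposited table holds raw counts per Ensembl gene for 22 libraries made with a 3' mRNA kit, per the labels' protocols. The submitters' processing notes name FastQC, STAR and the build GRCm38. What counted the reads, whether strand was used and with which annotation is not given in the sources used here, so overlapping genes may share counts. Symbols came from GENCODE M21 (52403 of 52636 identifiers matched). Libraries of 1 mouse and state were summed, since the mouse is the replicate. Totals of 2693399 to 8146613 counts set the precision.

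Each comparison was fitted over all genes with edgeR 4.0.16 in R 4.3.3 (quasi-likelihood F test, robust, TMM scaling, default low-count filter, Benjamini-Hochberg adjustment), with calls made below an adjusted p of 0.05. The 13 primary mice entered a fit of 3 groups (MCL-like against Ccnd2 non-MCL, and Ccnd2 non-MCL against p53-only) and a fit of 2 groups (MCL-like against all 9 non-MCL mice). Transplants were paired with primaries through a term for the mouse, which the labels give for each transplant. The SE is the absolute log2 fold change over the square root of F. CPM are unscaled. DESeq2 1.42.0, limma-voom (limma 3.58.1), other scalings and filters, and left-out mice or libraries were alternatives. With the oTP name as a covariate, the summed mouse with libraries of both names counted as not oTP. The fits were tested on simulated data.

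The genes and lists were chosen with earlier results of these data known. Besides the 36 genes, the text names called members of the 4 cell cycle lists (at most 6 per list) and E2f1, Ccne1, Ccna2, Mki67 and Top2a, with Ccnd2, Vpreb1 and marker sums as checks. Promoters came from RefSeq.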

Additional observations from a re-analysis of the deposited data

Results flagged for a closer look

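Of 108 gene and group combinations of 4 or 6 mice, 10 had a mouse whose gap to the next was large for the range of its group (Dixon's criterion); chance alone flags about 1 in 20 groups. Prim2 was at 23.19 CPM in MCL-like replicate 1, below 32.51 CPM in the next MCL-like mouse. In p53-only primaries, Cdt1 was high in replicate 1 at 226.8 CPM (next 107.7 CPM) and Rfc5 low in the same mouse at 63.17 CPM (next 103.1 CPM). Gins4 was high in the mouse of replicates 2 and 5 at 93.51 CPM (next 46.42 CPM), and Rfc2 in replicate 6 at 227.9 CPM (next 168.8 CPM). In MCL-like transplants, 3 genes were high in the mouse of replicate 6: Mcm5 at 192.7 CPM (next 98.63 CPM), Gins2 at 33.07 CPM (next 13.05 CPM) and Rpa2 at 205.2 CPM (next 143.6 CPM). Mcm4 was low at 64.89 CPM in the mouse of transplant replicate 1 (next 82.32 CPM), and Orc6 low at 21.8 CPM in the mouse of transplant replicate 5 (next 25.34 CPM).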

How the results depend on the processing

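For MCL-like against Ccnd2 non-MCL, the 0 replication genes called became 3 with DESeq2, where 6.44% of all genes were called. They became 2 without names beginning oTP (Rfc3 and Tyms, 4.24% of all genes) and 1 with spleen libraries alone (Tyms, 0.893%). The first of these settings kept only Ccnd2 non-MCL replicates 1 and 2, and the other only replicates 2 and 3. Leaving out each mouse gave 0 to 0, with medians of -0.58 to -0.18. Against all non-MCL, the 0 became 5 with DESeq2 (13.7% of all genes called) and 1 with library size scaling (Rfc2, 5.99%). Leaving out each mouse gave 0 to 3. There were 3 without Ccnd2 non-MCL replicate 2 (Mcm4, Cdc45 and Fen1), where 8.69% of all genes were called. There were 2 without p53-only replicate 3 (Rfc3 and Tyms, 7.53% of all genes). Without p53-only replicate 1 or the mouse of replicate 2 there was 1 (Tyms, 5.88% and 6.67%). These counts of 36 are near or below the share of all genes. The medians were -0.74 to -0.41. Library size scaling also moved the median of all genes to -0.16 (narrow), -0.22 (wide) and -0.10 (transplants). In the transgene comparison and the transplants every alternative run left 0 of the 36 called, with leave-one-out medians of -0.41 to 0.01 and 0.22 to 0.32; with no replicate block for mouse, 0 were called and the median was 0.20, so the pairing changed no call. The oTP comparison gave 2 called and, with the shared mouse kept as replicate 2, 4.

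Counts of other lists moved as well. In the narrow comparison, other replication genes called went from 0 to 8 (DESeq2), 1 (no low-count filter), 4 (without oTP names) and 1 (spleen), and 0 to 1 when leaving out mice; G1/S regulators from 0 to 3, 1 and 1 (DESeq2, without oTP names, spleen), and mitosis genes from 0 to 1 (DESeq2). In the transgene comparison DESeq2 called 2 other replication genes and 1 G1/S regulator, where it called 0.887% of all genes. In the wide comparison, other replication genes went from 6 to 10 (DESeq2), 2 (without oTP names), 1 (oTP as covariate) and 0 (spleen), and 1 to 8 when leaving out mice. Mitosis genes went from 2 to 0 without oTP names, with oTP as covariate and with spleen libraries, and 0 to 4 when leaving out mice. G1/S regulators went from 0 to 4 (DESeq2, 13.7% of all genes called) and 1 (limma-voom, 6.68%), and 0 to 4 when leaving out mice. Over all genes, the narrow count of 40 was 835 with DESeq2, 17 with limma-voom, 552 without oTP names, 116 with spleen libraries, 16 with 1 library of the shared mouse and 0 to 54 without single mice; the wide count of 685 was 1698 with DESeq2, 246 without oTP names, 157 with oTP as covariate, 39 with spleen libraries and 176 to 1065 without single mice. The causes were not tested, beyond the smaller number of samples in the settings that leave libraries out.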
